A study of Mus musculus with 14 samples.

Results

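The liver transcriptomes of mice given C18:1-leucine on a MASH diet were set against those of mice kept on chow, to describe what still differed from chow after the treatment. The comparison used 7 of the 14 libraries of the study, 3 of C18:1-leucine livers (replicates 1, 2 and 4) and 4 of chow livers (replicates 1 to 4), chosen by the group names in the sample titles. All mice were C57BL6/J males, 8 weeks old at the start, and ate either chow or the MASH diet, a feed that leads to fatty liver with inflammation and scarring (metabolic dysfunction-associated steatohepatitis), for 16 weeks. Mice of the C18:1-leucine group then received C18:1-leucine, the fatty acid C18:1 (abbreviated OA in the titles) joined to the amino acid leucine, for 6 more weeks while the MASH diet went on. The 3 livers of the MASH group, on the same diet with neither compound in their titles, served as a second point of comparison. Another 4 livers, treated with C18:1 alone, entered the fit only to estimate the spread. The labels also give 6 weeks of treatment for the MASH and C18:1 livers, and none for the chow livers. Doses, the age of the chow mice at harvest and whether chow mice received a vehicle are not stated in the labels. The series title names a PPARα and CCL2 axis. Whether the replicates are separate mice is not stated, so p-values measure the spread between these libraries only.

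In steatohepatitis, hepatocytes store triglyceride in lipid droplets, and monocytes drawn in by chemokines such as Ccl2 become lipid-handling macrophages. Stellate cells around the sinusoids turn into collagen-producing myofibroblasts, and hepatocytes lose part of the expression of their secreted proteins and detoxifying enzymes. Cholesterol synthesis is governed separately. When sterols are scarce in the membrane of the endoplasmic reticulum, the transcription factor SREBP-2 is released and switches on the whole pathway, and when cholesterol is plentiful the pathway is shut down. PPARα is the nuclear receptor that turns on fatty acid oxidation in hepatocytes.

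The 14 libraries held between 33821890 and 51107243 counts, and 15674 of 45706 genes passed the filter on low counts. The treatment tag of C18:1-leucine replicate 1 reads OA, and that of C18:1 replicate 1 reads Dietary, both against their titles. Transcripts of the exocrine pancreas stood out in 1 library of each group. Summed over the 24 genes of the acinar list they reached 1200 CPM (counts scaled to a common library size, here over all counts) in C18:1-leucine replicate 2, against 4.4 and 5.72 CPM in the others of that group. In chow livers the sum was 256 CPM in replicate 2 and 4.9 to 6.9 CPM in the others. In what follows, levels of single genes are in CPM on the scaled library size, changes are log2 fold changes ± SE of C18:1-leucine over chow, and a gene passed the test at an adjusted p under 0.05 (edgeR, all tested genes).

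C18:1-leucine livers remained far from chow livers. In all, 2276 genes (14.5% of those tested) passed the test, of which 1595 (10.2%) were higher and 681 (4.34%) lower than in chow livers. Among the 912 genes (5.82%) that also differed at least 2-fold, 832 (5.31%) were higher and 80 (0.51%) lower. The median log2 fold change of all tested genes was 0.0053. The libraries of the 2 groups did not overlap for 4572 genes (29.2%). The shares of all tested genes higher, lower and without overlap are the comparison for the counts of each gene list below. Removing both libraries with pancreatic transcripts left 1053 calls, and taking the groups from the treatment tags left 666. Without C18:1-leucine replicate 4 there were 980 calls, 768 of them higher and 212 lower.

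On the first principal component of all 14 libraries the C18:1-leucine livers lay between MASH and chow livers. Their scores were −9.08, −8.19 and 4.81, those of the MASH livers 10.8 to 26.8 and those of the chow livers −42 to −36.4. Tested directly against MASH livers, only 11 genes passed (0.0702% of those tested), 10 of them lower (0.0638%) and 1 higher (0.00638%) in C18:1-leucine livers. An unadjusted edgeR p under 0.05, which makes no allowance for the number of genes tested, was met by 2836 genes. It was met by 1967 without both libraries with pancreatic transcripts. The count of 11 at the adjusted threshold depended on the method, with 894 genes by DESeq2 and 617 by limma voom, and on single libraries. It was 0 without C18:1-leucine replicate 1, C18:1-leucine replicate 2 or MASH replicate 3, 1 without chow replicate 2, 2 without MASH replicate 2, 6 without MASH replicate 4, 60 without C18:1 replicate 3 and 79 without C18:1-leucine replicate 4. MASH livers differed from chow livers in 5563 genes (35.5%), with 20.4% of tested genes higher and 15.1% lower. That comparison uses the same chow libraries, so its values are given below side by side with those of C18:1-leucine and are not a separate line of evidence.

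**Figure D1:**
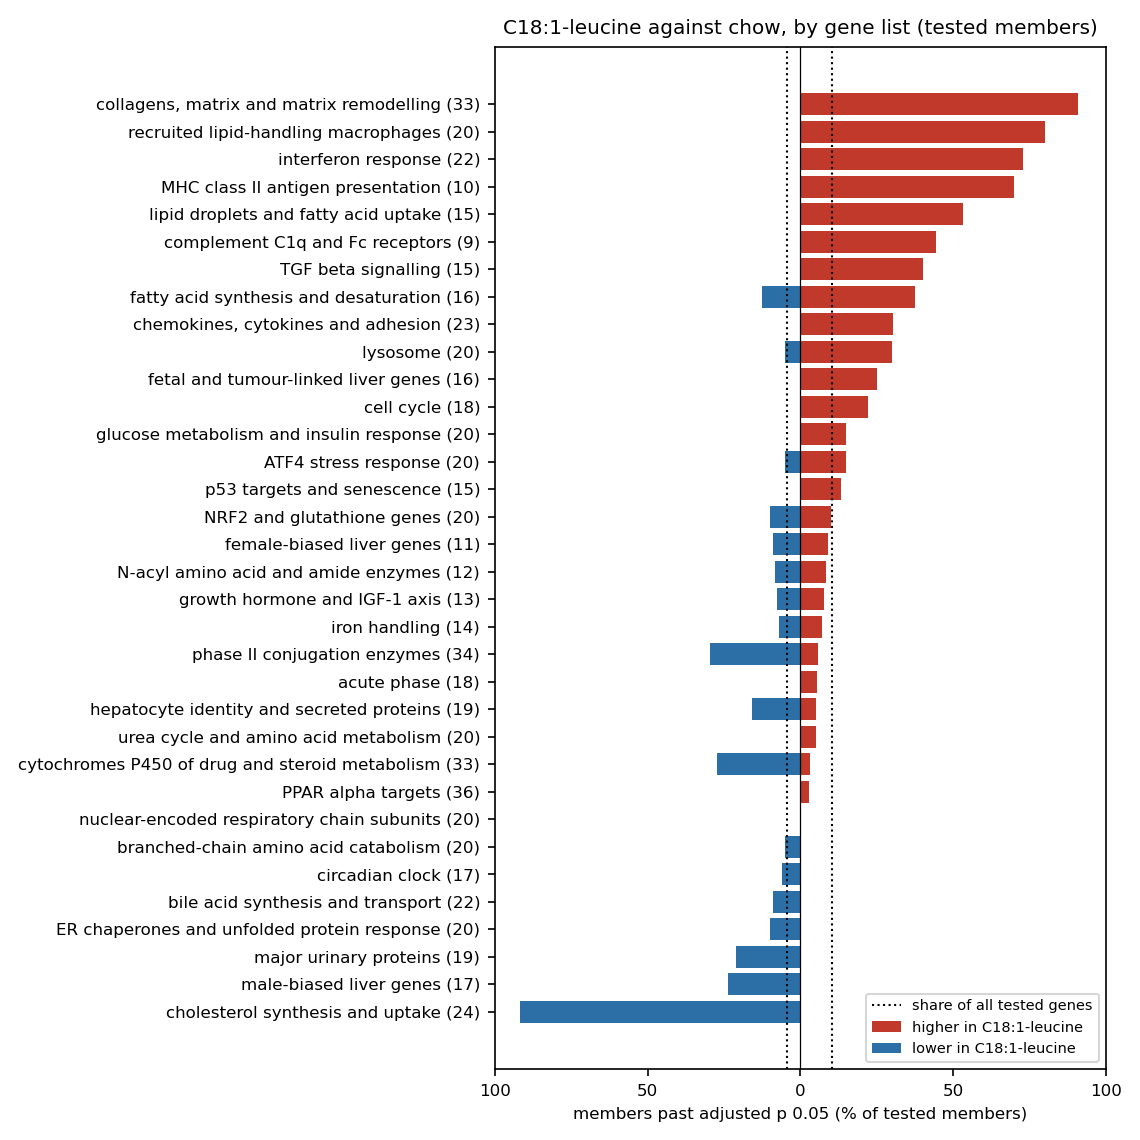
Share of the tested members of each gene list (number in brackets) that passed the test in C18:1-leucine against chow, higher to the right in red and lower to the left in blue. The dotted lines mark the shares of all tested genes, 10.2% higher and 4.34% lower. Matrix, macrophage and interferon genes reach furthest to the right, and cholesterol genes furthest to the left.

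Low expression of cholesterol synthesis genes was among the most uniform differences from chow. Of 24 genes of cholesterol synthesis and uptake, 22 fell and none rose, with a median log2 fold change of −1.72. The libraries of both groups did not overlap for 23 of the 24, against 29.2% of all tested genes. The count of falls stayed between 19 and 23 when single libraries were left out, and was 18 without both libraries with pancreatic transcripts and 19 with groups from the tags. Ebp, the sterol isomerase, was among the 2 members that did not pass (−0.33, 95% interval −0.62 to −0.05).

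The falls ran along the length of the pathway. Hmgcs1, which makes HMG-CoA at its start, had 46.1, 60.3 and 76.8 CPM in C18:1-leucine livers, against 179, 225, 161 and 366 CPM in chow livers (−1.93 ± 0.31, edgeR adjusted p 0.00226). Idi1, the isomerase that prepares the isoprenoid units, had 7, 10.8 and 16.7 CPM in C18:1-leucine livers, against 102, 127, 91 and 237 CPM in chow livers (−3.60 ± 0.60, edgeR adjusted p 0.00307). Every C18:1-leucine library lay below every chow library for both genes. Sqle, the squalene epoxidase (chr15:59315077-59331192, GRCm38), had the largest fall of the list. It measured 1.91, 1.24 and 3.42 CPM in C18:1-leucine livers, against 40.1, 53.2, 40.1 and 105 CPM in chow livers (−4.75 ± 0.71, edgeR adjusted p 0.00179). Here too the groups stood far apart.

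Further along, Cyp51, the lanosterol demethylase, had 12.6, 14.1 and 19.5 CPM in C18:1-leucine livers, against 110, 129, 90.3 and 169 CPM in chow livers (−3.02 ± 0.30, edgeR adjusted p 0.000194). Msmo1, the sterol methyl oxidase that acts after it, fell by 2.81 on the log2 scale, Mvd, the mevalonate decarboxylase, by 2.74, and Dhcr7, which makes cholesterol from its direct precursor, by 1.10. Among the regulators, Insig1, the sterol-sensing anchor of SREBP, fell by 1.91 and Srebf2, which encodes SREBP-2, by 0.85. Chow replicate 4 was the highest of its group for each gene of this paragraph and the one before.

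**Figure D2:**
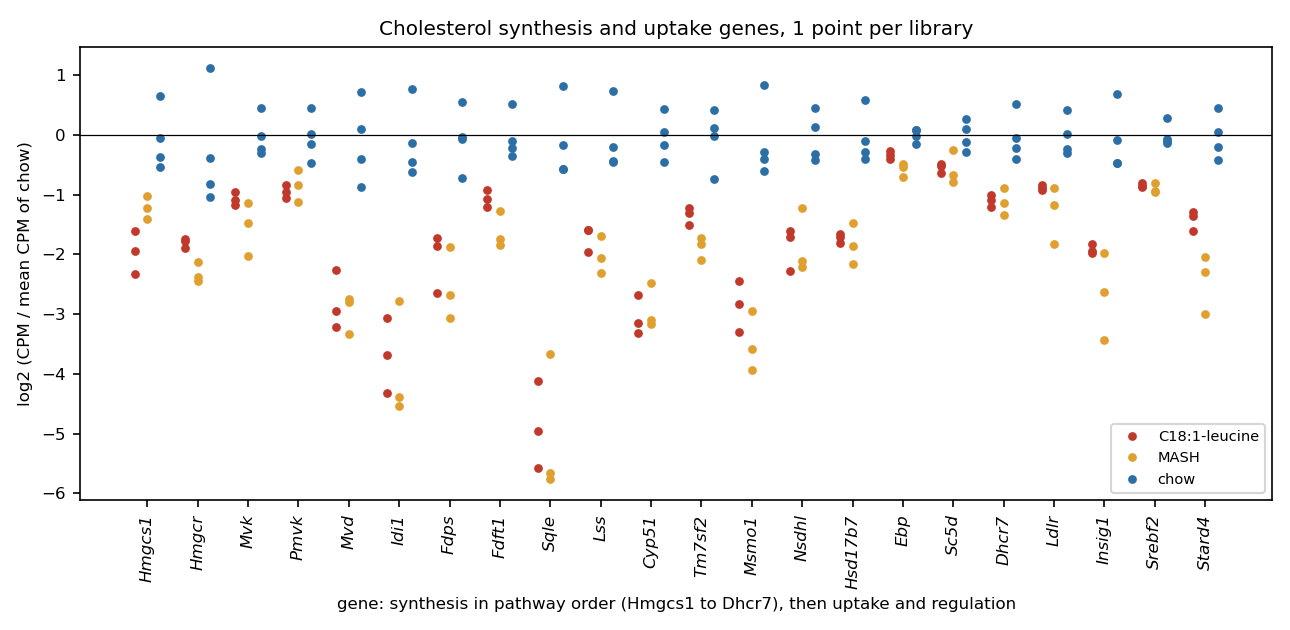
Log2 ratio of the CPM of each library to the mean CPM of the chow libraries (vertical axis) for 22 of the 24 genes of cholesterol synthesis and uptake, Ebp included, with 1 point per library of C18:1-leucine (red), MASH (orange) and chow (blue). The red points lie below the blue ones for all genes plotted, and by most at Sqle, Idi1 and Cyp51.

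Values in MASH livers were close to these by their median. The list's median in MASH against chow was −1.84, with 23 of 24 members lower. None of the 24 passed in C18:1-leucine against MASH, where the median log2 difference was 0.159. The widest gap there was at Stard4, a sterol carrier, with 49.6, 52.4 and 41.8 CPM in C18:1-leucine livers and 16, 26 and 31 CPM in MASH livers (0.98 ± 0.25, edgeR adjusted p 0.0885). Its groups did not overlap, but it missed the threshold.

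Because these genes are known targets of SREBP-2, which acts together with the CCAAT-binding factor NF-Y, 4 of their promoters are shown (250 bases before to 50 bases after the start, RefSeq, GRCm38.p6, 5′ to 3′ on the strand of the gene). Capitals mark the CCAAT box (CCAAT, or ATTGG where it lies on the other strand) and, in Hmgcs1 only, the sterol response element TCACNCCAC.
Hmgcs1 promoter (chr13:119690101-119690400, plus strand): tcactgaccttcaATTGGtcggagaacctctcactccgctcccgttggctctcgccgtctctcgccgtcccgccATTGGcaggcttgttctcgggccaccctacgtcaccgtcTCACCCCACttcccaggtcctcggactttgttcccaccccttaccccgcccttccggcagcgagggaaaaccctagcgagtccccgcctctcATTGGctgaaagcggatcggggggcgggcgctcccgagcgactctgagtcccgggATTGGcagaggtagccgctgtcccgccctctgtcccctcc
Idi1 promoter (chr13:8885356-8885655, plus strand): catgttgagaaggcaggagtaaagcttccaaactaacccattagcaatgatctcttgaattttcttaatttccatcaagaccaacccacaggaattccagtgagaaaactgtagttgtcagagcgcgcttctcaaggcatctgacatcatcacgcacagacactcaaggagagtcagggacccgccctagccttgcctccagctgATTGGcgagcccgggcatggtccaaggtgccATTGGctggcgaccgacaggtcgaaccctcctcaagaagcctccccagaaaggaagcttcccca
Cyp51 promoter (chr5:4104648-4104947, minus strand): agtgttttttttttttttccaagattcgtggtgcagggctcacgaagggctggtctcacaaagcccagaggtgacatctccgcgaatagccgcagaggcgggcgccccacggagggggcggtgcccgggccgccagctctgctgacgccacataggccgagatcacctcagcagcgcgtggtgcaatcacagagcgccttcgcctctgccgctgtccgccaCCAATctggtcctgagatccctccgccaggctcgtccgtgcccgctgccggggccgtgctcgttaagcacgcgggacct
Mvd promoter (chr8:122443373-122443672, minus strand): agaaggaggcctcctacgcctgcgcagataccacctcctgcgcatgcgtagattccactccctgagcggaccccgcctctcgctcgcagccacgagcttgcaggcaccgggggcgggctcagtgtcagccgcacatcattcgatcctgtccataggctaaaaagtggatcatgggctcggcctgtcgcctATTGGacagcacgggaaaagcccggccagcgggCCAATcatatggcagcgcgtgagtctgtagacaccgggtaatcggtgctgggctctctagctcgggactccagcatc
RefSeq gave a promoter for 16 of the 24 genes, 19 promoters in all. A CCAAT box on either strand was found in 16 of the 19 (84.2%), at least 1 for each of the 16 genes, against 37.4% of all 32851 promoters. The letters TCACNCCAC were found in 1 of the 19 (5.26%), that of Hmgcs1, at bases −137 to −129 from the start, against 1.24% of all promoters. A match of letters describes the sequence and does not show that a factor bound there.

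Genes of lipid storage were higher than in chow livers. Of 15 genes of lipid droplets and fatty acid uptake 8 rose, none fell and the median was 0.97, and the count was 7 or 8 whichever single library was left out. Cidea and Cidec, droplet proteins that fuse small droplets into large ones, led the list. Cidea had 11.3, 47.8 and 49.6 CPM in C18:1-leucine livers, against 0.144, 0.208, 0.478 and 0.294 CPM in chow livers (6.96 ± 0.70, edgeR adjusted p 0.000251). Cidec had 30.3, 78.7 and 154 CPM in C18:1-leucine livers, against 7.25, 2.22, 9.72 and 4 CPM in chow livers (3.91 ± 0.51, edgeR adjusted p 0.000879). For both genes all C18:1-leucine libraries lay above all chow libraries, and replicate 1 was the lowest of the treated livers.

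Cd36, a scavenger receptor that takes up fatty acids, had 148, 200 and 255 CPM in C18:1-leucine livers, against 61.6, 85, 92 and 78.8 CPM in chow livers (1.34 ± 0.16, edgeR adjusted p 0.000445). Also higher were Fabp4, a fatty acid-binding protein (1.82 ± 0.27), Mogat1, which makes diacylglycerol (2.30 ± 0.41), and Plin4, a droplet coat protein (1.59 ± 0.31). Other members of the list lay near chow. Plin2, the main coat protein of hepatocyte droplets, differed by 0.08, and Pnpla2, the lipase that opens droplets, by 0.10. In MASH livers 13 of the 15 genes were higher than in chow livers, with a median of 1.73. None of the 15 passed in C18:1-leucine against MASH, where the median was −0.477.

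Genes of fatty acid synthesis split among themselves. Of 16 genes 6 rose and 2 fell. The count of rises was 3 without C18:1-leucine replicate 2, chow replicate 1 or chow replicate 3, and the count of falls was 1 in 8 of the 14 fits that left out a library. Scd1, the desaturase that makes C18:1 from a saturated fatty acid, had 8886, 10049 and 15039 CPM in C18:1-leucine livers, against 437, 2203, 1491 and 3206 CPM in chow livers (2.63 ± 0.50, edgeR adjusted p 0.00566). Scd2 rose by 1.65 ± 0.23 and Elovl6, an elongase, by 0.90 ± 0.18. Acly, which supplies acetyl-CoA from citrate, had 99.2, 90.7 and 66.9 CPM in C18:1-leucine livers, against 120, 159, 144 and 159 CPM in chow livers (−0.77 ± 0.14, edgeR adjusted p 0.00407). The desaturases and the elongase were thus above every chow library, and Acly below every chow library.

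Genes of recruited macrophages were higher, beside a share of 10.2% of all tested genes. Of 20 genes of recruited lipid-handling macrophages 16 rose, none fell and the median was 1.95, and 15 or 16 rose whichever single library was left out. The count was 16 without both libraries with pancreatic transcripts and 13 with groups from the tags. Gpnmb, a membrane glycoprotein of lipid-laden macrophages (chr6:49036546-49070929), had 6.9, 37.7 and 55.3 CPM in C18:1-leucine livers, against 0.201, 0.148, 0.302 and 0.177 CPM in chow livers (7.28 ± 0.83, edgeR adjusted p 0.000459). Trem2, the lipid receptor that marks these cells, had 5.61, 8.51 and 12.5 CPM in C18:1-leucine livers, against 0.719, 0.682, 0.604 and 0.913 CPM in chow livers (3.60 ± 0.42, edgeR adjusted p 0.000445). Itgax, which encodes CD11c, rose by 3.44 ± 0.26, Ccr2, the receptor for Ccl2, by 2.51 ± 0.32, and Lpl, the lipoprotein lipase, by 2.26 ± 0.20. In whole liver, more cells of a type and more RNA per cell cannot be told apart.

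The resident macrophages of the liver gave no call. None of the 9 Kupffer cell genes passed in either direction, with a median of −0.248, and by summed level these genes reached 443, 692 and 737 CPM in C18:1-leucine livers, against 461 to 648 CPM in chow livers. Cd5l, a secreted protein of Kupffer cells, had 247, 172 and 70.9 CPM in C18:1-leucine livers, against 129, 144, 93.5 and 96.6 CPM in chow livers (0.49, 95% interval −0.25 to 1.24). The difference in count between the recruited and the resident lists was not tested.

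Several of these genes lay part of the way between MASH and chow. Ccl2, the monocyte chemokine named in the series title (chr11:82035571-82037453), had 0.752, 0.908 and 1.23 CPM in C18:1-leucine livers, 2.69, 3.78 and 4.05 CPM in MASH livers, and 0.201, 0.148, 0.126 and 0.0883 CPM in chow livers. It was thus still higher than in chow livers (2.75 ± 0.31, edgeR adjusted p 0.00028) and lower than in MASH livers (−1.86 ± 0.26, edgeR adjusted p 0.0315), with no overlap between any of the 3 groups. Mmp12, the macrophage elastase (chr9:7344381-7369499), had 6.96, 14.5 and 19.4 CPM in C18:1-leucine livers, 37.7, 56.2 and 62.8 CPM in MASH livers, and 0.385 to 0.618 CPM in chow livers (4.87 ± 0.38 over chow, edgeR adjusted p 3.09e-05, and −1.94 ± 0.31 against MASH, edgeR adjusted p 0.0447). Lgals3, the lectin galectin-3, had 15.9, 18.9 and 23.1 CPM in C18:1-leucine livers, 33.3, 54 and 56.1 CPM in MASH livers, and 4.15 to 5.81 CPM in chow livers.

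Mmp13, the collagenase, followed the same order, with 0.601, 1.24 and 1.43 CPM in C18:1-leucine livers, 5.3, 7.46 and 7.16 CPM in MASH livers, and 0.0755 to 0.236 CPM in chow livers. So did 3 genes of more general roles, with smaller differences from chow. Gramd1b, which carries cholesterol from the plasma membrane to the endoplasmic reticulum, was 1.38 ± 0.12 over chow and −0.82 ± 0.12 against MASH. Iqgap1, a cytoskeletal scaffold, was 0.82 ± 0.12 over chow and −0.86 ± 0.12 against MASH, and Galnt6, which starts O-linked glycosylation, 0.77 ± 0.15 over chow and −0.95 ± 0.15 against MASH. These 7 genes kept their difference from chow whichever single library was left out. Their differences from MASH were lost in the fits in which the whole count came to 0, and at least 5 of the 7 where it came to 1 or 2.

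**Figure D3:**
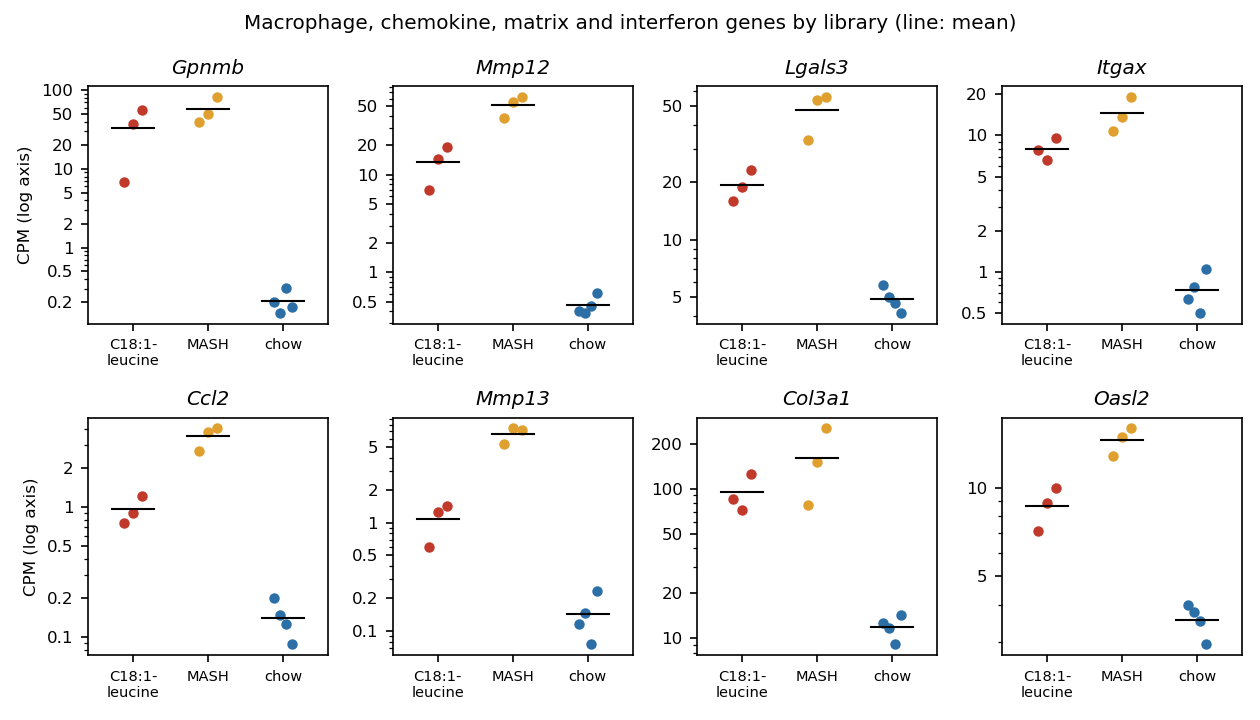
CPM on a log axis of 8 genes in each library of C18:1-leucine (red), MASH (orange) and chow (blue), with a line at the mean of the group. The C18:1-leucine livers lie above all chow livers in each panel. For Mmp12, Lgals3, Itgax, Ccl2, Mmp13 and Oasl2 they also lie below all MASH livers. Of these, Itgax and Oasl2 did not pass against MASH (edgeR adjusted p 0.101 and 0.0702).

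The other 4 genes that passed against MASH stood otherwise toward chow. For Cd14, the co-receptor for bacterial lipopolysaccharide, C18:1-leucine livers had 6.96, 6.41 and 7.16 CPM, MASH livers 17.5, 14.6 and 12.4 CPM, and chow livers 6.82, 7.03, 8.76 and 8.07 CPM. Its difference from chow was −0.16 (95% interval −0.49 to 0.16). Zfp385b, a zinc finger gene and the 1 gene higher than in MASH livers, differed from chow by −0.08 (−0.33 to 0.18). Atoh8, a basic helix-loop-helix transcription factor gene, was below both groups, with 13.1, 11.5 and 12.4 CPM in C18:1-leucine livers, 25.7, 27.8 and 21.4 CPM in MASH livers, and 28.2, 18.1, 19.9 and 18.9 CPM in chow livers (−0.79 ± 0.15 over chow, edgeR adjusted p 0.0049). MASH and chow livers overlapped for this gene and C18:1-leucine livers lay below both. Gm20388, likewise low against both, is a gene model that spans many other genes (chr8:119910841-124345722), so its counts are uncertain.

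Matrix genes rose as a block. Of 33 genes of collagens, matrix and matrix remodelling 30 rose, none fell and the median was 1.75, and 30 did not overlap between the groups. Of all tested genes 10.2% rose and 29.2% did not overlap. The count was 23 without both libraries with pancreatic transcripts, 18 with groups from the tags and 19 without C18:1-leucine replicate 4. Fibrillar collagens were among the rises. Col1a1 had 42.9, 20 and 38.5 CPM in C18:1-leucine livers, against 3.05, 2.05, 1.86 and 3.97 CPM in chow livers (3.63 ± 0.52, edgeR adjusted p 0.00139). Col3a1 (chr1:45311538-45349706) had 85.8, 72.4 and 125 CPM in C18:1-leucine livers, against 12.6, 11.7, 9.14 and 14.3 CPM in chow livers (2.98 ± 0.43, edgeR adjusted p 0.00136).

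The basement membrane collagen Col4a1 rose less, by 1.17 ± 0.18. Timp1, an inhibitor of matrix metalloproteinases with the largest log2 fold change of the list, had 1.33, 0.804 and 1.92 CPM in C18:1-leucine livers, against 0.0863, 0.0593, 0 and 0.0294 CPM in chow livers (4.91 ± 0.65, edgeR adjusted p 0.000772). The crosslinking enzymes Lox and Loxl2 rose by 2.57 ± 0.39 and 1.23 ± 0.22. Fn1, which encodes fibronectin, made in large amounts by hepatocytes, differed by −0.05 and did not pass. MASH livers had 31 of the 33 genes above chow livers, with a median of 1.93, and Mmp13 was the 1 member that passed in C18:1-leucine against MASH, where the median was −0.363. For Col1a1 and Col3a1 the C18:1-leucine and MASH livers overlapped.

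Genes of TGFβ, the cytokine that drives myofibroblasts, and of the stellate cells themselves showed fewer calls than the matrix genes. Of all tested genes 10.2% rose. The TGFβ list had a median of 0.629 and the stellate list a median of 0.606. In MASH livers 10 of the 15 TGFβ genes and 10 of the 13 stellate genes were higher than in chow livers. Of 15 genes of TGFβ signalling 6 rose and none fell, 3 rose without C18:1-leucine replicate 4 and 2 with groups from the tags, and 1 fell without chow replicate 2. Tgfbr2, the ligand-binding receptor, had 46.7, 45.3 and 48.2 CPM in C18:1-leucine livers, against 23.7, 29, 28 and 29.2 CPM in chow livers (0.77 ± 0.10, edgeR adjusted p 0.000702). Ltbp2, of a family of matrix proteins related to those that hold latent TGFβ, rose by 2.61 ± 0.48. Of 13 stellate cell and myofibroblast markers 4 rose and none fell, 1 without C18:1-leucine replicate 4 or with groups from the tags and 7 without C18:1 replicate 2. Pdgfrb, the growth factor receptor of stellate cells, had 19, 16.5 and 19.7 CPM in C18:1-leucine livers, against 5.61, 6.73, 6.72 and 7.98 CPM in chow livers (1.45 ± 0.31, edgeR adjusted p 0.0102). Acta2, the smooth muscle actin of myofibroblasts, did not pass, with 3.46, 2.23 and 3.22 CPM in C18:1-leucine livers, against 4.98, 0.889, 0.982 and 1.18 CPM in chow livers. Chow replicate 1 stood above all treated livers for Acta2, and the other chow livers below them.

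Interferon-stimulated genes were moderately higher. Of 22 genes 16 rose, none fell and the median was 0.88, and the count lay between 13 and 18 when single libraries were left out. It was 11 without both libraries with pancreatic transcripts and 12 with groups from the tags. Oasl2, of the oligoadenylate synthetase family, had 7.15, 8.9 and 10 CPM in C18:1-leucine livers, against 4, 3.79, 3.52 and 2.94 CPM in chow livers (1.28 ± 0.15, edgeR adjusted p 0.000319). Isg15, the ubiquitin-like modifier (chr4:156199424-156200818), had 12.5, 11.2 and 12 CPM in C18:1-leucine livers, against 6.39, 5.66, 4.93 and 5.56 CPM in chow livers (1.08 ± 0.16, edgeR adjusted p 0.00116). Ifit3, an antiviral protein gene, rose by 1.30 ± 0.18, Oas1a by 1.30 ± 0.21 and Xaf1, a pro-apoptotic factor, by 1.23 ± 0.16. The groups did not overlap for any of these 5 genes. Ifit3 and Oas1a have close copies beside them in the genome, so their counts are uncertain. In MASH livers 20 of the 22 were higher than in chow livers, with a median of 1.35, and none passed in C18:1-leucine against MASH, where the median was −0.39.

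Promoters of 3 of these genes are shown, since interferon signalling acts through the interferon-stimulated response element. Its core was searched as TTTC followed, after any 2 bases, by TTTC again. Capitals mark matches on either strand (with GAAA in place of TTTC on the other), and matches that overlap run together (RefSeq, GRCm38.p6, 250 bases before to 50 bases after the start, 5′ to 3′ on the strand of the gene).
Isg15 promoter (chr4:156200769-156201068, minus strand): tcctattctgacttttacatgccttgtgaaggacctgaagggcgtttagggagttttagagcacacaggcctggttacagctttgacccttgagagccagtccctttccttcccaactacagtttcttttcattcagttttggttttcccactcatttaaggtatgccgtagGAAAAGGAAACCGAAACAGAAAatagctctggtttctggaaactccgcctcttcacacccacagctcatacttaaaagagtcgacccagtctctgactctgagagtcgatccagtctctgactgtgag
Ifit3 promoter (chr19:34583279-34583578, plus strand): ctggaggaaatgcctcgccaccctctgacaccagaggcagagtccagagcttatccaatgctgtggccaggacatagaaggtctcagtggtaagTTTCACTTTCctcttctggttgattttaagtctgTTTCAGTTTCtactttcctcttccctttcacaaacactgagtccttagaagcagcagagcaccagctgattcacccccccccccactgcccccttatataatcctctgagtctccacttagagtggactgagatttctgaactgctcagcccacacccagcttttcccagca
Oas1a promoter (chr5:120907476-120907775, minus strand): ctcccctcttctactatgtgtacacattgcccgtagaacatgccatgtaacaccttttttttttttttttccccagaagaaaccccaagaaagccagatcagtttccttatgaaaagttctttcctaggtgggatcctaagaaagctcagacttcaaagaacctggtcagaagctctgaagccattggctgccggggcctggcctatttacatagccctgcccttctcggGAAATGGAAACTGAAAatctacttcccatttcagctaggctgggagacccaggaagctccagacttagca
The table held promoters for 16 of the 22 genes, 19 in all, and 10 of the 19 (52.6%) had at least 1 match, against 3.44% of all promoters. Isg15 had 3 overlapping matches between bases −78 and −57 from the start, Oas1a an overlapping pair between −20 and −5, and Ifit3 separate ones at −156 to −147 and −122 to −113.

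Genes of antigen presentation and phagocytic receptors rose in part, beside a share of 10.2% of all tested genes. Of 10 MHC class II genes 7 rose, with a median of 1.11, 4 without C18:1-leucine replicate 2, 2 without C18:1-leucine replicate 4, 2 without both libraries with pancreatic transcripts and none with groups from the tags. Ciita, the master regulator of class II genes, had 4.1, 4.62 and 4.65 CPM in C18:1-leucine livers, against 1.41, 2.28, 0.957 and 1.47 CPM in chow livers (1.55 ± 0.31, edgeR adjusted p 0.00712). Of 9 genes of complement C1q and Fc receptors 4 rose, 2 without C18:1-leucine replicate 1 or without both libraries with disagreeing labels and none with groups from the tags. Fcgr1, the high-affinity IgG receptor, was among them (1.25 ± 0.24, edgeR adjusted p 0.00535). Of 23 chemokines, cytokines and adhesion genes 7 rose and none fell, 4 without chow replicate 3, 4 without both libraries with pancreatic transcripts and 2 with groups from the tags. A fall of 1 gene was called without MASH replicate 4 or C18:1 replicate 3. Beside Ccl2 the rises included Cxcl16, the ligand of Cxcr6 on lymphocytes (0.93 ± 0.18), Csf1, the macrophage growth factor (0.91 ± 0.17), and Il1rn, the antagonist of the interleukin-1 receptor (1.09 ± 0.22). In MASH livers 18 of the 23 were higher than in chow livers.

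Hepatocyte genes fell in part. Hnf4a, the transcription factor that maintains hepatocyte identity (chr2:163506808-163572910), had 648, 768 and 709 CPM in C18:1-leucine livers, 842, 823 and 530 CPM in MASH livers, and 1264, 1076, 1281 and 1214 CPM in chow livers (−0.77 ± 0.17 over chow, edgeR adjusted p 0.0107). The treated livers lay below all chow livers and within the range of MASH livers. Serpina1e, of the α1-antitrypsin family, had 2645, 2261 and 641 CPM in C18:1-leucine livers, 436, 359 and 372 CPM in MASH livers, and 7602, 7135, 5963 and 7313 CPM in chow livers. It fell against chow livers (−1.92 ± 0.40, edgeR adjusted p 0.00845) and lay above all MASH livers, where it missed the threshold (2.25 ± 0.42, edgeR adjusted p 0.0634). Its close copies in the genome make its counts uncertain. Of the 19 tested genes of hepatocyte identity and secreted proteins 3 fell and 1 rose, with a median of −0.201 (−0.398 in MASH over chow), the rise being lost without C18:1-leucine replicate 2, C18:1-leucine replicate 4, chow replicate 1, chow replicate 3 or both libraries with pancreatic transcripts. With groups from the tags none of the 19 fell and 1 rose.

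Enzymes of detoxification held further falls. Of 34 phase II conjugation enzymes 10 fell and 2 rose, with a median of −0.273. The falls numbered 6, 5 and 4 without C18:1-leucine replicates 1, 2 and 4, 5 and 4 without chow replicates 2 and 3, 2 without both libraries with pancreatic transcripts, 5 without both libraries with disagreeing labels and 3 with groups from the tags. The rises numbered 0 or 1 in most fits that left out a library. Gsta2, a glutathione transferase, had 7.67, 14.9 and 12.1 CPM in C18:1-leucine livers, against 27.6, 43.5, 56.1 and 53 CPM in chow livers (−1.97 ± 0.31, edgeR adjusted p 0.00199). Ugt2b5, a glucuronosyltransferase, had 522, 607 and 591 CPM in C18:1-leucine livers, against 965, 1185, 1116 and 1032 CPM in chow livers (−0.91 ± 0.13, edgeR adjusted p 0.00102). For both, all treated livers lay below all chow livers. Both belong to families with close copies. Ugt1a9 fell by 1.66 ± 0.36, but the Ugt1a transcripts share exons, so its counts are uncertain.

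Of 33 tested cytochromes P450 of drug and steroid metabolism 9 fell and 1 rose, with a median of −0.442. The falls numbered 4 without C18:1-leucine replicate 1, 1 without C18:1-leucine replicate 4, 3 without both libraries with pancreatic transcripts and 4 without both libraries with disagreeing labels. With groups from the tags no fall was called. The rise was lost without C18:1-leucine replicate 4, chow replicate 1, chow replicate 2 or both libraries with pancreatic transcripts, and a second one joined it without C18:1-leucine replicate 1. Cyp2b10, the enzyme induced through the receptor CAR, had 0.0859, 1.04 and 1.32 CPM in C18:1-leucine livers, 1.97, 27.9 and 0.696 CPM in MASH livers, and 19, 17.6, 63.4 and 58.5 CPM in chow livers. Its fall was the widest of the list (−5.62 ± 1.29, edgeR adjusted p 0.0154), but it missed the threshold without C18:1-leucine replicate 4 (edgeR adjusted p 0.0542) and without both libraries with pancreatic transcripts (edgeR adjusted p 0.0534). Every treated liver was below every chow liver, and MASH livers reached into both groups.

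**Figure D4:**
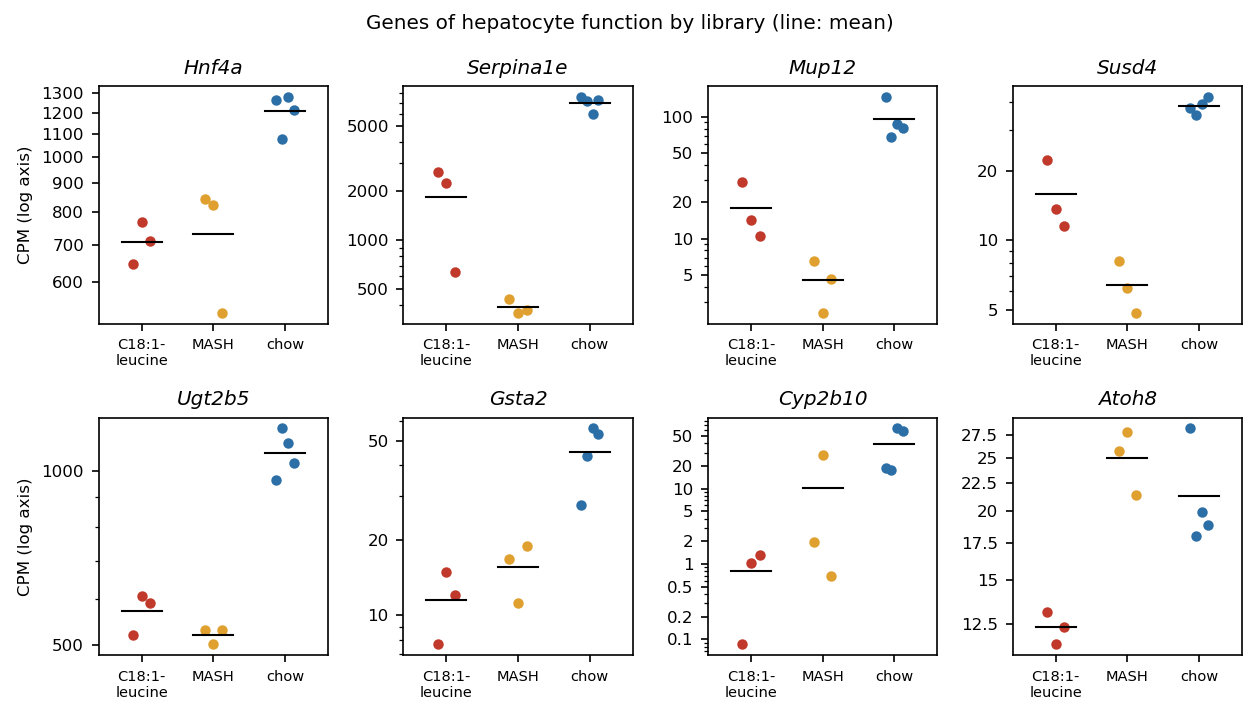
CPM on a log axis of 8 genes in each library of C18:1-leucine (red), MASH (orange) and chow (blue), with a line at the mean of the group. All C18:1-leucine livers lie below all chow livers in each panel. For Serpina1e, Mup12 and Susd4 they lie above all MASH livers, and for Atoh8 below them.

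The major urinary proteins, pheromone carriers that male liver makes under growth hormone pulses, were low in MASH livers (17 of 19 tested genes below chow livers, median −2.08). In C18:1-leucine livers 4 of the 19 were below chow livers, with a median of −0.50. No fall remained without C18:1-leucine replicate 2 or 4, without both libraries with pancreatic transcripts or with groups from the tags, and 1, 2 and 1 remained without chow replicates 1, 2 and 3. None passed in C18:1-leucine against MASH, where the median was 1.65. Mup12 had 29.4, 14.1 and 10.4 CPM in C18:1-leucine livers, 6.52, 2.47 and 4.67 CPM in MASH livers, and 146, 68.3, 87.2 and 80.8 CPM in chow livers, with no overlap between the groups. Its fall against chow (−2.41 ± 0.57, edgeR adjusted p 0.0172) missed the threshold without C18:1-leucine replicate 2 (edgeR adjusted p 0.0565) or 4 (edgeR adjusted p 0.0755). Mup genes are near-identical, so the split of counts between them is uncertain.

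Other genes with higher expression in male liver stood in a similar place. Of 17 such genes 4 fell, 2 without C18:1-leucine replicate 2 or 4 (and 1 then rose without replicate 2) and 1 with groups from the tags, with a median of −0.296 against −1.89 in MASH over chow. Susd4, a complement regulator gene, had 22.2, 13.7 and 11.6 CPM in C18:1-leucine livers, 8.16, 6.2 and 4.85 CPM in MASH livers, and 37.6, 34.9, 38.9 and 41.9 CPM in chow livers (−1.27 ± 0.25 over chow, edgeR adjusted p 0.00572). The 3 groups did not overlap, but the difference from MASH missed the threshold (1.31 ± 0.26, edgeR adjusted p 0.0702).

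For several metabolic lists few or no genes passed against chow. Ppara itself (chr15:85734983-85802819) had 155, 172 and 130 CPM in C18:1-leucine livers, against 140, 136, 161 and 130 CPM in chow livers (0.10, 95% interval −0.20 to 0.41). Of 36 PPARα targets 1 rose, Aldh3a2, a fatty aldehyde dehydrogenase (0.96 ± 0.22), a call lost without C18:1-leucine replicate 4. A fall was called without MASH replicate 2 or 4 or C18:1 replicate 1. The median was −0.066, with the lowest value at Cyp4a14, a fatty acid hydroxylase. It had 828, 563 and 1095 CPM in C18:1-leucine livers, against 4168, 2360, 4559 and 2540 CPM in chow livers (−2.04, 95% interval −3.47 to −0.61, edgeR adjusted p 0.0561). Its groups did not overlap, yet it missed the threshold.

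None of 20 nuclear-encoded subunits of the respiratory chain passed, with values from −0.242 to −0.062 and a median of −0.105, while all 20 were lower in MASH than in chow livers (median −0.312). A fall of 1 subunit was called without C18:1-leucine replicate 1 or C18:1 replicate 2. Of 20 tested genes that break down branched-chain amino acids, leucine among them, 1 fell in C18:1-leucine livers, with a median of −0.041, and 12 in MASH livers, with a median of −0.276. The 1 fall, Acadsb, which oxidises a product of isoleucine (−0.33 ± 0.10), was lost in most fits that left out a library. Of 20 genes of the urea cycle and amino acid metabolism none fell and 1 rose, with a median of −0.373. The rise was Glul, which makes glutamine, and it was lost without C18:1-leucine replicate 2 or 4. A fall was called in this list without C18:1 replicate 1, 2 without both libraries with disagreeing labels, and 4 each by DESeq2 and limma voom. In MASH livers 14 of the 20 were lower than in chow livers, with a median of −0.912. The 14 sinusoidal endothelial genes gave no call, with a median of 0.013, and 1 fall without MASH replicate 4 or C18:1 replicate 2. None of the genes of these 4 lists passed in C18:1-leucine against MASH.

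Bile acid genes gave 2 falls among 22, with a median of −0.195, 1 without C18:1-leucine replicate 1 or without both libraries with pancreatic transcripts, and none with groups from the tags. Abcc4, a pump that moves bile acids from hepatocytes into blood, had 2.79, 3.11 and 2.86 CPM in C18:1-leucine livers, against 5.03, 5.72, 5.01 and 5.56 CPM in chow livers (−0.87 ± 0.13, edgeR adjusted p 0.00161). The treated livers were close together and all below the chow livers. Among genes of the ATF4 stress response, Asns, the asparagine synthetase, had 2.64, 3.63 and 3.24 CPM in C18:1-leucine livers, 0.497, 1.21 and 0.655 CPM in MASH livers, and 8.66, 7.8, 13.4 and 11.5 CPM in chow livers (−1.71 ± 0.38 over chow, edgeR adjusted p 0.0127). It lay between the other groups without overlap, while Nupr1, a stress-induced nuclear protein of the same list, was higher than in chow livers (1.83 ± 0.38). In all 3 of the 20 ATF4 genes rose and 1 fell, with a median of 0.215. Of all tested genes 10.2% rose and 4.34% fell. A second fall of an ATF4 gene was called without C18:1-leucine replicate 4, MASH replicate 2 or 3, or C18:1 replicate 1, 2 or 4. With groups from the tags 1 rose and none fell, and without both libraries with pancreatic transcripts 1 rose.

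Markers of other cells moved with the treated group to different extents. Their part in the results above was not tested. By summed level, cholangiocyte markers (13 genes) reached 76.9 to 259 CPM in C18:1-leucine livers, against 44.4 to 57.3 CPM in chow livers, and stellate markers (13 genes) 551 to 751 CPM, against 293 to 395 CPM in chow livers. T and NK cell markers (16 genes) reached 7.16 to 8.27 CPM in C18:1-leucine livers, against 4.03 to 6.23 CPM in chow livers. Of the 13 cholangiocyte genes 1 rose, and of the 16 T and NK genes 1, beside 10.2% of all tested genes. The cholangiocyte call was lost without C18:1-leucine replicate 4 or any 1 of the chow libraries. The T and NK call was lost in most fits that left out a library. Mesothelium and capsule markers (6 genes) reached 281 to 403 CPM in C18:1-leucine livers, against 166 to 231 CPM in chow livers, and 3 of the 6 rose, none of them without C18:1-leucine replicate 4, chow replicate 1, 2 or 3, either pair of libraries or with groups from the tags, and 1 without C18:1-leucine replicate 2. Adipocyte markers (6 genes) reached 928 to 1370 CPM in C18:1-leucine livers, against 589 to 841 CPM in chow livers, and of the 2 genes tested 1 rose, Cfd. Cfd was at 24.9 to 73.1 CPM in C18:1-leucine livers, and Adipoq, Lep, Retn and Plin1 had too few counts to be tested. Most of the sum thus came from 1 gene, Car3, which did not pass against chow (log2 fold change 0.578). The 5 sums given so far did not overlap between the groups, but they lack the library scaling used for single genes. Scaling would narrow the T and NK gap, as the factor was 1.02 in C18:1-leucine replicate 4 and 0.88 in chow replicate 3. Neutrophil markers (12 genes) were at 64 CPM in C18:1-leucine replicate 1 and at 6.29 and 6.77 CPM in the others, against 3.66 to 9.73 CPM in chow livers, so the group's high value rested on 1 library. Endothelial markers (14 genes) lay at 497 to 561 CPM in C18:1-leucine livers and 447 to 518 CPM in chow livers, and erythroid markers (9 genes) at 662 to 1240 CPM in C18:1-leucine livers and 422 to 662 CPM in chow livers.

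**Figure D5:**
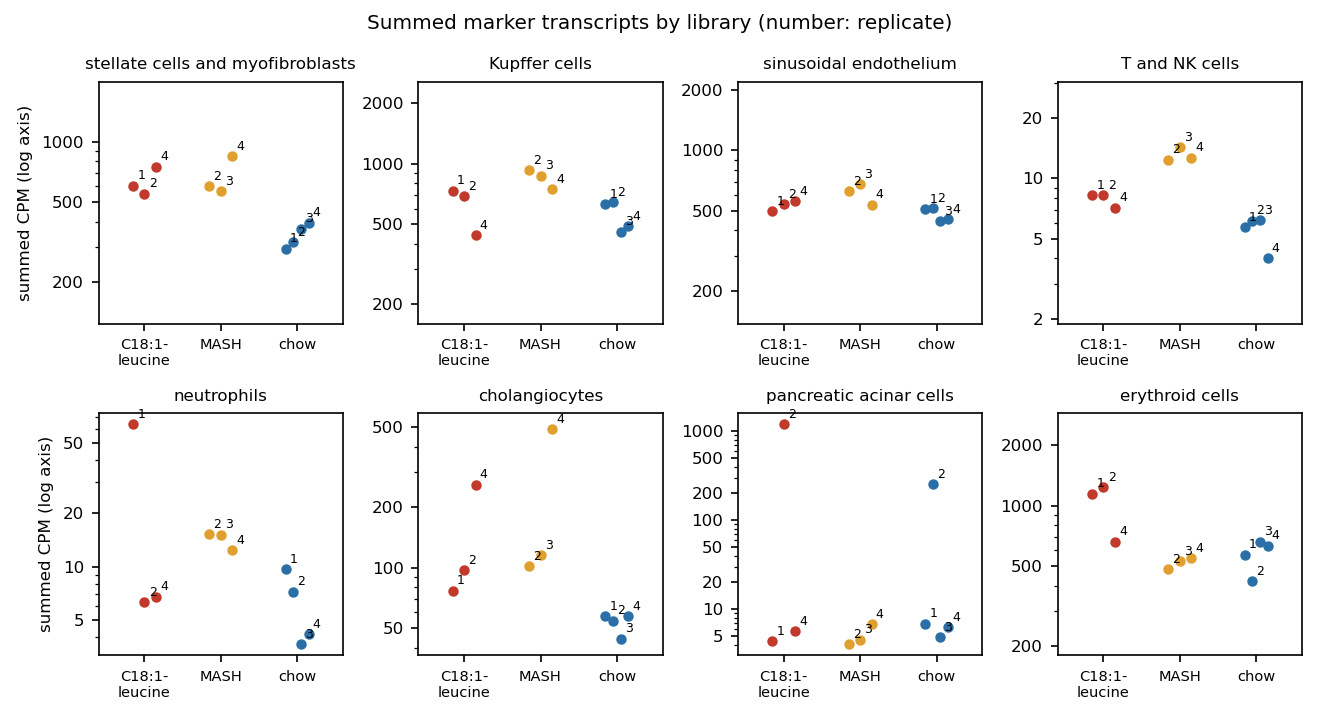
Summed CPM of all counts on a log axis for 8 lists of cell type markers in each library of C18:1-leucine (red), MASH (orange) and chow (blue), with the replicate number beside each point. C18:1-leucine replicate 2 and chow replicate 2 stand apart in pancreatic transcripts, and C18:1-leucine replicate 1 in neutrophil transcripts.

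Several of the largest rises, that of Cfd from the adipocyte list included, were from genes nearly silent in chow livers. Cfd, which encodes adipsin, a serine protease best known from fat cells, had 24.9, 73.1 and 40.2 CPM in C18:1-leucine livers, 15.7, 28.9 and 30.4 CPM in MASH livers, and 0.115, 0.237, 0.856 and 1.06 CPM in chow livers (6.32 ± 0.84 over chow, edgeR adjusted p 0.000947). The defining fat cell genes Adipoq, Lep, Retn and Plin1 had too few counts to be tested. Aqp7, a channel for glycerol, was read 233 times over the C18:1-leucine livers and 2 times over the chow livers, a pooled ratio of 128 (95% interval 34.9 to 1060, counting error only). Ephb2, a receptor for ephrins, had 1.53, 9.34 and 17.8 CPM in C18:1-leucine livers, against 0.119 to 0.352 CPM in chow livers (5.27 ± 0.76, edgeR adjusted p 0.00138). For Aqp7 and Ephb2, as for Cidea and Gpnmb, replicate 1 was the lowest of the treated livers and still above all chow livers.

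Ly6d, a surface protein of the Ly6 family, had 11.6, 25.1 and 66.9 CPM in C18:1-leucine livers, 78.8, 82.1 and 92.9 CPM in MASH livers, and 3.48, 1.48, 1.03 and 1.12 CPM in chow livers (4.28 ± 0.54 over chow, edgeR adjusted p 0.000813). The 3 groups did not overlap, although the difference from MASH did not pass (−1.29 ± 0.50, edgeR adjusted p 0.204). Ccnd1, the cyclin of the first growth phase, had 22.3, 41.9 and 63.2 CPM in C18:1-leucine livers, against 13.1, 8.54, 9.92 and 13.2 CPM in chow livers (1.92 ± 0.31, edgeR adjusted p 0.00247). Among the falls outside the cholesterol list, Obp2a, of the lipocalin family, had 1.25, 0.389 and 0.246 CPM in C18:1-leucine livers, against 3.71, 6.61, 3.6 and 2.15 CPM in chow livers (−2.66 ± 0.57, edgeR adjusted p 0.01).

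Of the 76 genes named here or in the closing section that passed against chow, 8 no longer passed without both libraries with pancreatic transcripts (Acadsb, Aldh3a2, Cyp2b10, Glul, Il1rn, Mup12, Obp2a and Ugt1a9, edgeR adjusted p 0.0534 to 0.115). Grouped by the treatment tags, which leaves 2 C18:1-leucine libraries, 22 genes no longer passed (edgeR adjusted p 0.0518 to 0.298). These were Abcc4, Acadsb, Asns, Atoh8, Ciita, Clock, Cxcl16, Cyp2b10, Fcgr1, Galnt6, Gm20388, Hk2, Hnf4a, Il1rn, Iqgap1, Mmp13, Mup12, Obp2a, Pdgfrb, Pkm, Serpina1e and Susd4. Acadsb, Asns and Cyp2b10 also missed the threshold without both libraries with disagreeing labels (edgeR adjusted p 0.0556 to 0.0628).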

How the data were processed

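RNA of whole liver was extracted with RNeasy Mini kits and made into NEBNext Ultra II libraries, per the labels' protocols. The authors deposited a table of expected counts per Ensembl gene. Between 5.09% and 5.76% of a library's values were fractional, so they were rounded to whole counts here. The build GRCm38 and the tools HTSeq and DESeq2 1.42.1 are named in the submitters' processing notes. Neither the role of each nor any use of strand in counting is stated there. The authors also deposited log2 fold changes and p-values of 6 comparisons, which were not used, since their letters have no key in the sources used here. Groups followed the sample titles, with OAL read as C18:1-leucine.

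Genes were kept by filterByExpr (minimum count 10, minimum total 15, smallest group 3). One edgeR 4.0.16 model (R 4.3.3) held all 14 libraries, with TMM scaling and the robust two-sided quasi-likelihood F test, with Benjamini-Hochberg adjustment over 15674 genes and a threshold of 0.05. SE is the log2 fold change divided by the square root of F. CPM of single genes uses TMM-scaled library sizes. Replicates of a group differed by far more than sampling noise. The script was tested on simulated data. Results were recomputed with relative log expression scaling, DESeq2 1.42.0, voom of limma 3.58.1 with sample weights, no filter on low counts, a replicate block, the 2 groups alone, without each library, both libraries with pancreatic transcripts or with disagreeing labels left out, groups from the tags, and a 2-fold minimum.

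The groups, the 45 gene lists and the genes named were chosen with earlier results of these data known, and lists are described by counts only. Some list members are counted but not reported singly here. The rule for names took the 10 largest rises and falls past the threshold with at least 1 CPM, no clone name and no overlap. It also took the 4 smallest p of each list. Genes past the threshold in the same direction against chow and MASH, without overlap in either pair, were taken too. So were genes called in MASH against chow and, the opposite way, in C18:1-leucine against MASH, but not in C18:1-leucine against chow. The rule also took Ccl2 and Ppara, and a part of the genes it took is named. Outside it, and chosen after their values were seen, are the rest of the 11 genes that passed against MASH (Galnt6, Gm20388, Gramd1b, Iqgap1, Lgals3, Mmp13) and the list members Acta2, Ccr2, Col1a1, Dhcr7, Ebp, Fn1, Hmgcs1, Insig1, Lox, Loxl2, Mogat1, Oas1a, Plin2, Plin4, Pnpla2, Stard4 and Trem2. Gene coordinates are from GENCODE M21 (GRCm38), which held 45143 of the 45706 identifiers. Intervals of pooled counts are exact binomial and cover counting error only.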

Additional observations from a re-analysis of the deposited data

Results flagged for a closer look

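Among the 4 chow libraries, a value was singled out where its gap to the nearest other library took up nearly the whole range of the group. Chance singles out about 1 in 20 groups. The check covered 87 genes and 11 marker sums and found 7 such values. It was run on chow livers only, so it does not compare chow with the other groups. Chow replicate 4 was far above the other chow livers for the cholesterol genes Msmo1 (258 CPM, others 95.5 to 119) and Srebf2 (80.3 CPM, others 59.7 to 62.4), and chow replicate 1 for Acta2 (4.98 CPM, others 0.889 to 1.18).

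Chow replicate 2 stood apart in the sum of pancreatic acinar genes (256 CPM, others 4.9 to 6.9) and in Nupr1 (1.54 CPM, others 0.705 to 0.777). Chow replicate 3 stood apart for Il1rn (3.3 CPM, others 2.56 to 2.61) and held the chow counts of Aqp7 (0.0504 CPM, others 0). The falls of Msmo1 and Srebf2 and the rises of Aqp7, Il1rn and Nupr1 passed the test whichever single library was left out.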

How the results depend on the processing

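The count of genes that differed between C18:1-leucine and chow livers (2276, with 1595 higher and 681 lower) became 1053 (865 and 188) without both libraries with pancreatic transcripts, 666 (545 and 121) with groups from the tags, and 912 (832 and 80) with a 2-fold minimum. The lower genes alone became 438 without a filter, 1234 by DESeq2, 1257 by voom and 382 without both libraries with disagreeing labels. Leaving out 1 library gave 980 to 2432 calls, 768 to 1697 higher and 212 to 735 lower. The 11 genes of C18:1-leucine against MASH (10 lower, 1 higher) became 30 without a filter, 894 by DESeq2, 617 by voom, 43 with the 2 groups alone, 7 with a 2-fold minimum, 0 without either pair of libraries or with groups from the tags, and 0 to 79 without 1 library. MASH against chow gave 2075 with a 2-fold minimum (5563 without) and 3820 to 5726 without 1 library. Of 76 named genes called against chow, 51 kept their call in all settings run and 71 in all fits without 1 library. Signs turned without the pancreatic pair for Zfp385b (0.00297), Ppara (−0.0135) and Fn1 (0.0442), none of them called. Without 1 library Fn1 ranged from −0.273 to 0.124 and Plin2 from −0.148 to 0.316. A replicate block gave 1851 calls (1353 and 498) against chow and 35 against MASH. Same-numbered libraries of the 2 groups correlated at 0.0544 to 0.144, others at −0.333 to 0.279, so the numbers were not taken to pair them. The causes of these shifts were not tested. With 3 libraries in the treated group, small differences could go uncalled.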

Other observations

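Some gene groups not described above also held calls. For comparison, 10.2% of all tested genes were higher and 4.34% lower than in chow livers. Of 20 genes of glucose metabolism 3 rose, among them Pkm, the pyruvate kinase form of cells other than hepatocytes, with 49.5, 36.4 and 42.8 CPM in C18:1-leucine livers, against 22.2, 20.6, 19.3 and 20.9 CPM in chow livers (1.05 ± 0.18, edgeR adjusted p 0.00329), and Hk2, a hexokinase (1.51 ± 0.31). None of the 20 passed with groups from the tags. The middle log2 fold change of the glucose list, −0.00695, was near that of all tested genes (0.0053). Whether its share of rises exceeded that of all genes was not tested. Of 20 lysosomal genes 6 rose and 1 fell. Without C18:1-leucine replicate 4 or without both libraries with pancreatic transcripts 3 rose, with groups from the tags 1 rose, and the fall was lost in most fits that left out a library. Of 18 cell cycle genes 4 rose and none fell, 2 without C18:1-leucine replicate 4 or any 1 of the chow libraries, and 1 without both libraries with pancreatic transcripts or with groups from the tags. Of 16 tested fetal and tumour-linked liver genes 4 rose and none fell, and 2 rose without C18:1-leucine replicate 4, without both libraries with pancreatic transcripts or with groups from the tags.

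Of 17 clock genes 1 fell, Clock itself, with 48.2, 51.9 and 50.1 CPM in C18:1-leucine livers, 85.3, 64 and 58.4 CPM in MASH livers, and 87.1, 78.2, 72.7 and 71.9 CPM in chow livers (−0.63 ± 0.12 over chow, edgeR adjusted p 0.00434). The labels do not state the time of day of tissue collection. Among acute phase genes, Saa2 was high in single libraries of different groups, with 4462 CPM in C18:1-leucine replicate 1 and 53.5 and 78 CPM in the others, 3818 CPM in MASH replicate 3, and 5.26 to 89.8 CPM in chow livers.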
